A study of Mus musculus with 16 samples.

Results

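The genes for the Notch ligands Dll1, Dll3, Dll4, Jag1 and Jag2 and for the ligand-like proteins Dlk1, Dlk2 and Dner are described here through the ATAC-seq peaks that differed between neuroendocrine (NE) and non-neuroendocrine (non-NE) cells of mouse small cell lung cancer (SCLC). ATAC-seq marks open chromatin by the places where the transposase Tn5 can cut. A peak was given to one of these genes when, of all protein-coding transcription start sites, a start site of that gene lay closest to the centre of the peak. This rule used positions alone and picked 61 of the 80367 listed peaks (mm10). They belong to 6 of the 8 genes, since no listed peak was nearest to Dll3 or Dlk2.

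Notch receptors are switched on by ligands that sit on neighbouring cells. The Delta-like and Jagged proteins carry a DSL domain that binds the receptor and, once the sending cell pulls on the complex, the receptor is cut and its inner part moves to the nucleus, where it joins RBPJ and Mastermind to activate genes such as Hes1. In the lung and in SCLC, NE cells are known as senders of the signal and Hes1-expressing cells as its receivers.

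The tumors grew in TKO;Hes1 GFP/+ mice, which carry floxed alleles of Rb, p53 and p130, deleted by an adenovirus with Cre under the ubiquitous CMV promoter (Ad-CMV-Cre) given through the trachea, and a GFP reporter in 1 copy of Hes1. Both groups thus share the 3 deletions and the reporter, and differ in the reporter's signal: Hes1-GFP+ cells are the non-NE and Hes1-GFP- cells the NE population, each pooled from the tumors of a mouse. The 16 sequencing runs, 8 per group, come from 8 libraries loaded on 2 lanes, as 4 pairs from 3 mice. One of the mice gave a second pair, which is not a further animal. Per the study's methods, young adult mice of both sexes were infected and tumors were taken several months later. The peaks stand in an opened list (more accessible in Hes1-GFP+ than in Hes1-GFP- cells) and a closed list (less accessible), and each had passed DESeq2's Wald test between the groups at an adjusted p under 0.001 with a difference of more than 2-fold. Of all listed peaks, 50.8% were opened and 49.2% were closed. For each peak the files used here hold 1 mean signal over all libraries, a count of reads scaled for sequencing depth, and no value per library, so that no level has an SD or n and the depth is unknown. In sorted bulk cells, fewer cells with an open site and a less open site in each cell cannot be told apart.

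Sequences of 6 stretches are given first, because the largest blocks of peaks described below are at Dll1, Dner and Jag1. All are mm10 reference sequence, written 5′ to 3′ on the minus strand, which is the coding strand of the 3 genes. Capitals mark every match, on either strand, to short strings that stand for binding sites of factor families: GTGGGAA for RBPJ, TGANTCA for AP-1, TGTTTAC for FOX, CAGCTG for an E-box of basic helix-loop-helix factors, TTGGCA for NFI and TTCAGCACC for the first letters of the element bound by the repressor REST. The full REST consensus was searched as well.
Dll1 closed peak at a second RefSeq start (chr17:15376939-15377139), with an E-box and an AP-1 match: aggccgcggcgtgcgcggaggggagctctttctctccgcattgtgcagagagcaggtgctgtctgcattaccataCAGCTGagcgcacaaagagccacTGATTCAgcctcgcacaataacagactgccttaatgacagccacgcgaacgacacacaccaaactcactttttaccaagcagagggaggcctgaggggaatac
Dll1, 300 bases of the opened peak downstream of the gene (chr17:15326071-15326370), with 2 AP-1 matches around an NFI match, all outside the central 200 bp of the peak: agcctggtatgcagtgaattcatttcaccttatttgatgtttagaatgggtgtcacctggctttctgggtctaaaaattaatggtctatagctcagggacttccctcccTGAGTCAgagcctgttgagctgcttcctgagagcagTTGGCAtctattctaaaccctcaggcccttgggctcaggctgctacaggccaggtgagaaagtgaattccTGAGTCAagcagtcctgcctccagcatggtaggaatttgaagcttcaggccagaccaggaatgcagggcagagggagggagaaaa
Dner upstream of the start (chr1:84696222-84696471), with the REST string and the longer match that overlaps it: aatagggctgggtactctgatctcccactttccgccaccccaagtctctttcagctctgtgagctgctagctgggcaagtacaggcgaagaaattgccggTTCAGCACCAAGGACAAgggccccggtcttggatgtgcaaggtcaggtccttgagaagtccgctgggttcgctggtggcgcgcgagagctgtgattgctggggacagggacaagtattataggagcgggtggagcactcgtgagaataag
Dner closed peak at the head of intron 1 (chr1:84695098-84695358), with an NFI and an E-box match: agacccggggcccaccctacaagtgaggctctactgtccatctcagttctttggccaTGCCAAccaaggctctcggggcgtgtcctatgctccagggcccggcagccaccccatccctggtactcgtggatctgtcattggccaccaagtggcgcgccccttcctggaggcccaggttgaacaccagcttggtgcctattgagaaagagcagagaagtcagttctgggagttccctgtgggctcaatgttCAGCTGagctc
Dner, central 300 bases of the closed peak in intron 1 with the most E-boxes (chr1:84621428-84621727), 4 of them: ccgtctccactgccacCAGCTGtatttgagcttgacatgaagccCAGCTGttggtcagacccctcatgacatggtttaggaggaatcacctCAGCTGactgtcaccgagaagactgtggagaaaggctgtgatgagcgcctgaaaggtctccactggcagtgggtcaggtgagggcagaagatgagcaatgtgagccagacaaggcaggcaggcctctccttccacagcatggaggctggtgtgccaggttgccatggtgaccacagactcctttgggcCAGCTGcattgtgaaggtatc
Jag1, 300 bases of an opened peak in intron 5 (chr2:137098300-137098599), with an RBPJ match that lies outside the central 200 bp of the peak: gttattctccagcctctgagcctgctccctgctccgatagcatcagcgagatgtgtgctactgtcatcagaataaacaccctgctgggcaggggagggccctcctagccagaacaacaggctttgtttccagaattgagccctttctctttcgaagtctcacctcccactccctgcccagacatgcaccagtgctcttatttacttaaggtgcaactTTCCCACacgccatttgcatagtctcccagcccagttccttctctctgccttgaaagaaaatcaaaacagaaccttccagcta

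Closed peaks outnumbered opened ones at Dll1, Dner and Jag2, and opened ones outnumbered closed ones at Jag1 and, with 2 against 1, at Dll4. Of their 61 peaks, 18 were opened and 43 were closed, an opened share of 29.5% (95% Wilson interval 19.6 to 41.9) beside 50.8% of all listed peaks. Without Jag1, 5 of 41 peaks were opened, or 12.2% (5.32 to 25.5). These intervals cover counting error only, and peaks of 1 gene are neighbours on a chromosome rather than replicates. Close to the start sites the split was wider. Within 10 kb, the ligand genes had 1 opened and 15 closed peaks (6.25% opened, 1.11 to 28.3), whereas 65.4% of the 24366 listed peaks within 10 kb of a coding start were opened. With start sites of every gene type counted, 40 of the 61 peaks went to a non-coding gene or pseudogene, and 9 opened and 12 closed peaks were left (42.9% opened). Whether a peak acts on the gene nearest to it was not tested.

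**Figure D1:**
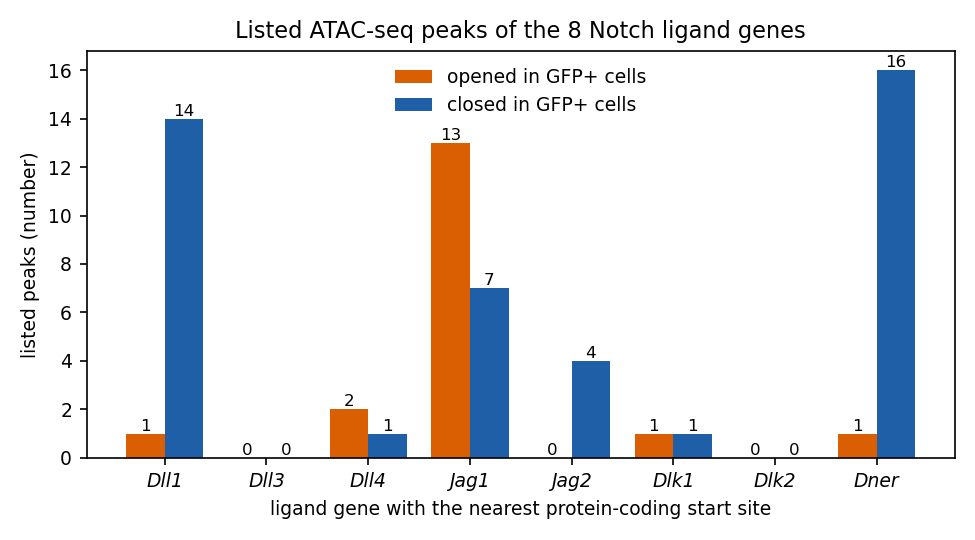
Number of listed peaks (vertical axis) whose nearest protein-coding start site belongs to each of the 8 ligand genes, as bars for peaks opened (orange) and closed (blue) in Hes1-GFP+ cells. Closed peaks stand highest at Dner (16) and Dll1 (14), opened peaks at Jag1 (13), and Dll3 and Dlk2 have none.

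Dll1, a canonical Delta-like ligand that activates Notch on neighbouring cells, had 14 closed peaks and 1 opened peak. Only 2.59% of the 21924 protein-coding genes had as many closed peaks. With start sites of every gene type, 11 of the 15 went to another gene and 4 closed peaks were left. The 172 kb that lie nearer to the Dll1 start than to that of another coding gene held 8.74 listed peaks per 100 kb, against 2.95 over the chromosomes. One of the closed peaks covered the start itself (chr17:15375714-15376271, centre 16 bp upstream, 558 bp wide) with a mean signal of 182 normalized reads. It also covered all 300 bases of the RefSeq promoter at the nearest Dll1 start. A second closed peak (chr17:15376939-15377139, 1063 bp upstream, mean signal 72.4) lay in the promoter of a RefSeq transcript of Dll1 that starts farther upstream. Both RefSeq promoters of Dll1 therefore overlapped closed peaks.

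Around the gene, Dll1's strongest peaks were closed as well. The highest mean signal, 193, was at a peak 24.0 kb downstream of the start (chr17:15351693-15352164). Next came a peak 4.81 kb upstream (chr17:15380603-15380972) with a mean signal of 188, which held a FOX match and 2 E-box matches. Inside the 8.62-kb gene body, 2 small closed peaks lay in exons 2 and 9, with mean signals of 41.1 and 13.4. The remaining 8 closed peaks had mean signals from 13.3 to 125, the farthest of them 128 kb downstream at the start of the non-coding gene Gm5091. The opened peak (chr17:15325971-15326780) was 49.6 kb downstream, was the widest of the 15 at 810 bp and had a mean signal of 130. It carries the pair of AP-1 matches printed above and had closed peaks on both sides.

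Dner, an atypical transmembrane protein with EGF repeats but no DSL domain, proposed as a Notch ligand in neurons and glia, had 16 closed peaks and 1 opened peak. As many closed peaks were found at 1.87% of protein-coding genes. With start sites of every gene type, 12 of the 17 went to another gene, and 4 closed peaks and the opened one were left. Of the 16 closed peaks, 3 had their centres within 1 kb of the start. The nearest (chr1:84696205-84696368) was centred 65 bp upstream with a mean signal of 36.2. The strongest (chr1:84695485-84695990) had its centre in exon 1, 484 bp downstream of the start, with a mean signal of 175; its centre is 102 bp from the start of the microRNA gene Mir5126. The third (chr1:84695098-84695358), in intron 1, was 993 bp downstream with a mean signal of 122. Next came a closed peak at 1.34 kb with a mean signal of 78.3. Thus 4 closed peaks stood in a row over the promoter, part of the first exon and the head of intron 1. When peaks of 1 list within 500 bp were merged, these 4 were joined and 12 closed peaks of Dner were left.

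Further into Dner, closed peaks ran along intron 1 and on into introns 3 and 4. The strongest of these, 99.7 kb downstream (chr1:84596168-84596779), had a mean signal of 147, and the 8 others had values from 6.51 to 37.4. In the 326-kb gene body as a whole, 20 peaks were listed and all were closed, including 8 in its far end that are nearer to the start of the neighbouring gene Pid1. Upstream there were 3 small closed peaks between 13.4 and 14.4 kb (mean signals of 6.40 to 20.3). Beyond them stood the single opened peak, 41.0 kb upstream (chr1:84736998-84737479), with a mean signal of 86.3.

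**Figure D2:**
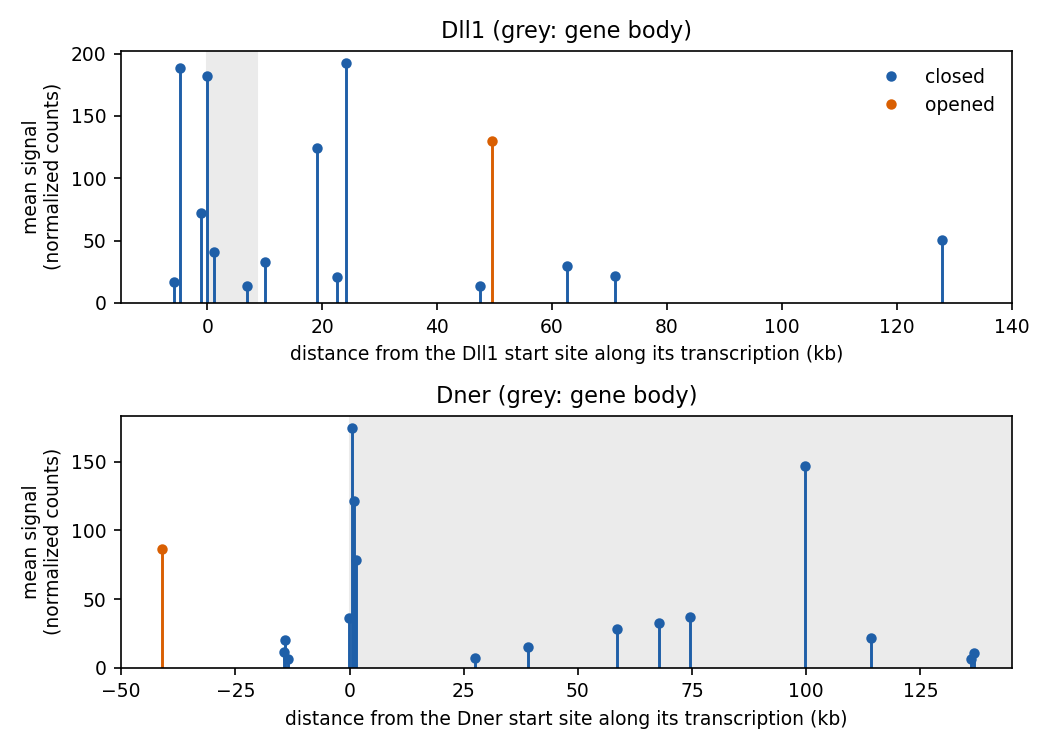
Mean signal over all libraries (vertical axis, normalized reads) of each listed peak of Dll1 (top) and Dner (bottom) against the distance of its centre from the start site (horizontal axis, kb), with the gene body in grey, closed peaks in blue and opened peaks in orange. The peaks at both start sites are closed, and each gene has 1 opened peak, 49.6 kb downstream of the Dll1 start and 41.0 kb upstream of the Dner start.

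The stretch upstream of the Dner start held the 9-letter REST string. It lies 142 to 150 bp upstream of the start, and 6 of the 9 letters fall inside the closed peak while 3 lie past its edge. The peak is 164 bp wide, so the string was found in the 200-bp window around its centre but not within the peak alone. The same string was in 0.371% of 32851 RefSeq promoters and in the central windows of 0.329% of all closed and 0.321% of all opened peaks. The 16-letter REST consensus matched no peak of the ligand genes exactly. Allowing 1 letter to differ, a search added after the 9-letter string was seen, it matched the Dner promoter 134 to 149 bp upstream of the start, and no promoter of the other 7 genes. That looser match was in 1.01% of promoters and in the central windows of 0.660% of all closed and 0.735% of all opened peaks. REST, a zinc finger repressor of neuronal genes, had 3 opened peaks at its own gene and no closed one. As many opened peaks were found at 23.1% of protein-coding genes. Binding of REST at Dner was not measured in the files used here.

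Jag1, a canonical Jagged ligand, had more opened than closed peaks, 13 against 7 (65.0% opened, 43.3 to 81.9). As many opened peaks were found at 2.11% of protein-coding genes. Its neighbourhood is wide: 676 kb lie nearest to the Jag1 start, and its density of 2.96 listed peaks per 100 kb was close to that of the chromosomes (2.95). None of the 20 peaks was at the promoter. Inside the gene, 3 peaks were listed and all 3 were opened. The strongest (chr2:137109591-137110203), in intron 2 at 6.75 kb downstream of the start, had a mean signal of 274, the highest of the 61 peaks. A predicted RefSeq transcript of Jag1 starts 3.40 kb upstream of this peak's centre. The other pair, in intron 5 at 18.0 and 19.4 kb, had mean signals of 135 and 24.4, and the first of them carries the RBPJ match printed above.

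Upstream of Jag1, opened and closed peaks were interspersed. Over the 635 kb from its first to its last peak, neighbouring peaks changed list 12 times. Among the 8 opened peaks upstream, the strongest lay 109 kb from the start with a mean signal of 188 and a width of 885 bp, the widest of the 61. A further opened peak 297 kb upstream had a mean signal of 166. The highest closed peak of Jag1 (chr2:137236697-137237255, 120 kb upstream, mean signal of 150) was the next one upstream of the widest opened peak. The other 6 closed peaks had mean signals from 9.40 to 47.9. The outermost peak, 568 kb upstream, was opened and lay in an annotated intron, and 13 of the 20 peaks were closer to a non-coding start than to that of Jag1.

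**Figure D3:**
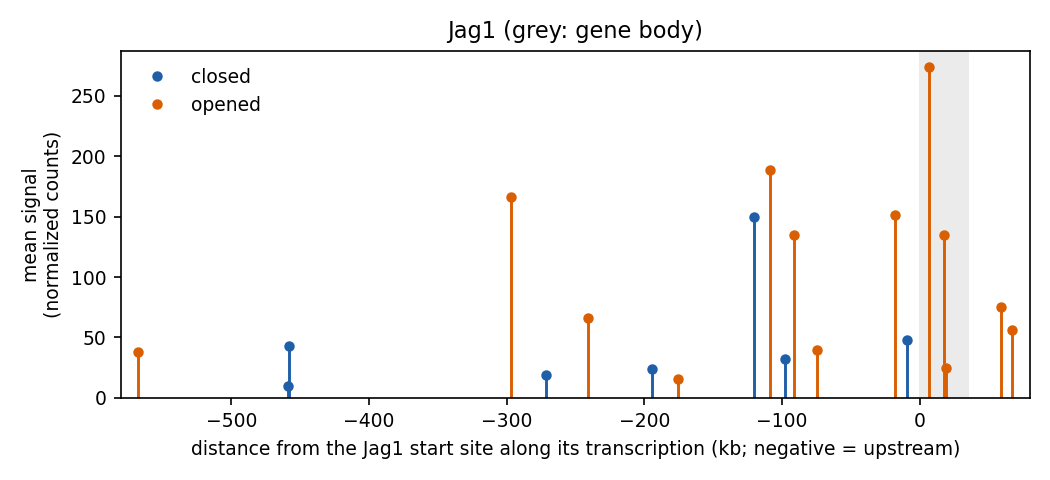
Mean signal over all libraries (vertical axis, normalized reads) of the 20 listed peaks of Jag1 against the distance from its start site (horizontal axis, kb; negative values are upstream), with the gene body in grey, opened peaks in orange and closed peaks in blue. The 3 peaks in the gene body are opened, and the peaks upstream change between the lists.

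Jag2, the second Jagged ligand, had 4 closed peaks and no opened one, and with start sites of every gene type 2 closed peaks were left. Of the 4 closed peaks, 2 lay 3.06 and 3.52 kb upstream of the start (chr12:112932753-112932925 and chr12:112933195-112933393) with mean signals of 38.6 and 49.8. One was in intron 2 (chr12:112924215-112924498, 5.42 kb downstream, mean signal of 49.0), and the last was 32.2 kb downstream with a mean signal of 30.9. The Jag2 promoter itself held no listed peak. With 4 peaks, the opened share of 0% has a Wilson interval up to 49.0%.

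Dll4, a Delta-like ligand best known from blood vessel sprouting, had 2 opened peaks and 1 closed peak (66.7% opened, 20.8 to 93.9). Within 10 kb of its start there were 0 opened and 1 closed, and with start sites of every gene type 1 opened and 0 closed. The strong one (chr2:119337691-119338266) was opened, 12.2 kb downstream of the start and past the end of the gene, with a mean signal of 256, the second highest of the 61. An opened peak 11.4 kb upstream (chr2:119314181-119314492) had a mean signal of 20.7. The closed peak (chr2:119330025-119330334) was in intron 6, with a mean signal of 59.4.

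Dlk1 lacks the DSL domain and is studied as an inhibitor of Notch and as a marker of immature and NE cells. It had 1 closed peak 27.5 kb upstream (chr12:109425165-109425457, mean signal of 20.1) and 1 opened peak 14.9 kb upstream (chr12:109437836-109438011, mean signal of 29.5). Nothing was listed in its gene body or at its promoter. At 0.751 listed peaks per 100 kb, its neighbourhood of 266 kb was the sparsest of the 6 genes with peaks.

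Dll3, which sits mainly inside the cell and inhibits Notch in the same cell rather than activating it on others, had no listed peak. The nearest was a closed peak 11.0 kb from its start at the promoter of Selenov. Dlk2, the relative of Dlk1, had none either, and the nearest was a closed peak 8.89 kb from its closest start, assigned to Tjap1. Counted by the gene body and the 10 kb around it, Dll3 had 2 closed peaks and Dlk2 had 1, and neither had an opened one. The stretches nearest to these starts are short, 10.4 kb for Dll3 and 21.7 kb for Dlk2, and 33.5% of protein-coding genes had no listed peak. Peaks that were open in both groups, or that differed by less than the limits, are not in the lists, so an accessible promoter at Dll3 or Dlk2 would not be seen.

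**Figure D4:**
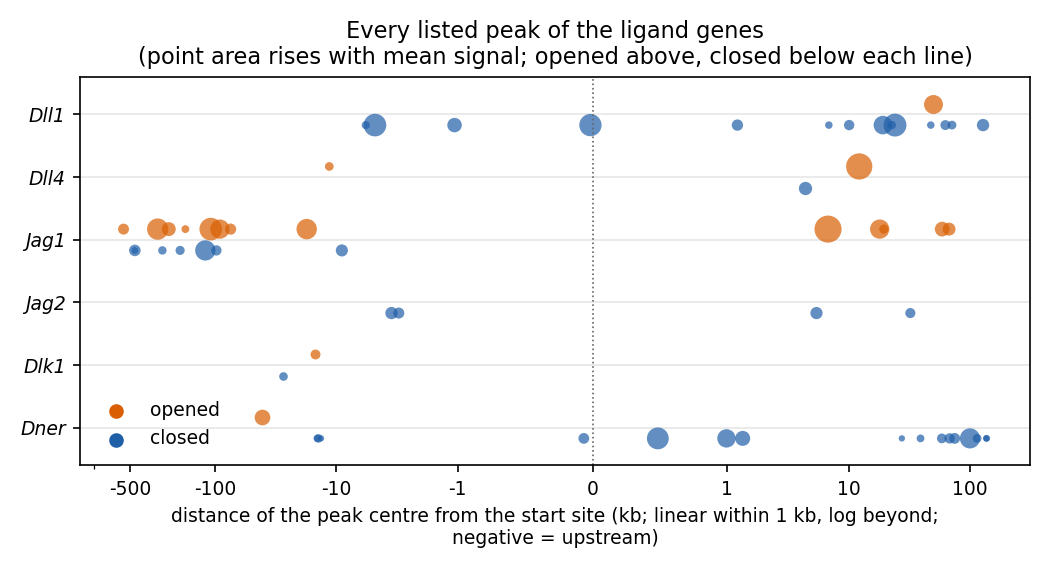
Every listed peak of the 6 ligand genes that have one, by the distance of its centre from the start site (horizontal axis, kb; linear within 1 kb and logarithmic beyond). Point area rises with the mean signal, opened peaks (orange) stand above and closed peaks (blue) below each line. The peaks within 10 kb are closed but for 1, in intron 2 of Jag1.

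In the ligand genes, opened peaks had a median mean signal of 80.9 (quartiles 38.4 to 147), beside a median of 40.7 over all opened peaks, and a median width of 489.5 bp beside 300 bp. Closed peaks had a median mean signal of 32.9 (19.5 to 54.9) beside 25.8, and a median width of 246 bp beside 248 bp. Per 100 bp of width the medians were 16.4 for opened peaks (14.4 over all opened) and 11.5 for closed peaks (10.8 over all closed). None of the 18 opened peaks was within 1 kb of an annotated start of any gene, beside 22.3% of all opened peaks. Of the 43 closed peaks, 8 (18.6%) were, beside 9.68% of all closed peaks: 4 at the Dll1 and Dner starts described above, and 4 near starts of non-coding or unclassified genes. At a distance of 3 kb the closed count was 9 of 43 (20.9%), near the 17.3% of all closed peaks. The median GC content was 46.4% in the opened peaks (51.1% over all opened) and 52.9% in the closed (48.9% over all closed).

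**Figure D5:**
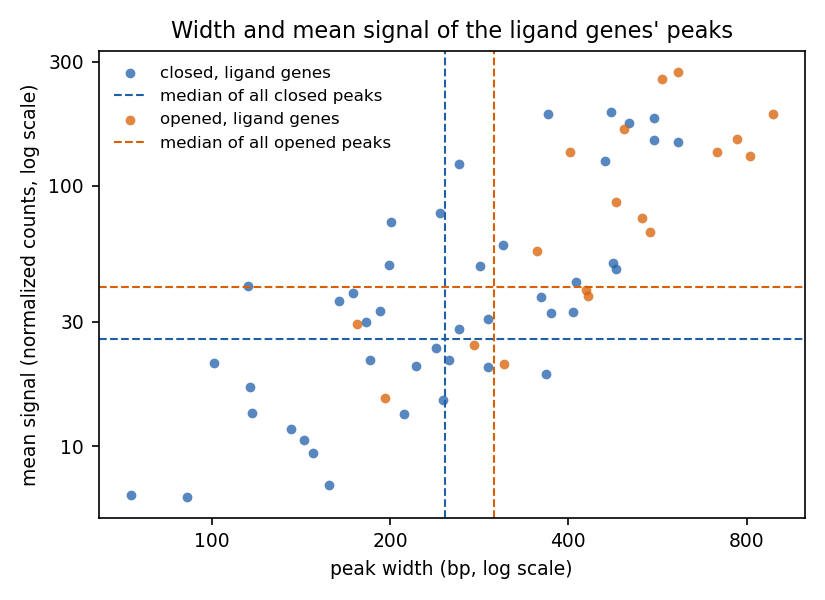
Mean signal (vertical axis, normalized reads, log scale) against width (horizontal axis, bp, log scale) of the 61 peaks, opened in orange and closed in blue, with dashed lines at the medians of all opened and all closed listed peaks. The widest peaks, over 612 bp, are opened, and the weakest, under 15 normalized reads, are closed.

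Matches to the short strings were few. In the central 200 bp, E-boxes were in 9 of 43 closed peaks (20.9%, beside 22.6% of all closed peaks), and AP-1 matches were in 7 (16.3%, beside 26.4%). For RBPJ the counts were 3 of 43 closed peaks (6.98%, beside 4.02%) and 1 of 18 opened peaks (5.56%, beside 5.74%). FOX matches were in 4 closed peaks (9.30%, beside 9.70%) and 1 opened peak (5.56%, beside 6.84%). NFI matches were in 5 closed peaks (11.6%, beside 13.5%) and 3 opened peaks (16.7%, beside 18.0%). By gene, 5 of the 16 closed peaks of Dner (31.2%) and 2 of the 14 of Dll1 (14.3%) held an E-box centrally. In whole peaks the counts were 7 (43.8%) and 2 (14.3%), beside 27.6% of all closed peaks. For AP-1 in opened peaks, the central count was 2 of 18 (11.1%, beside 10.6% of all opened peaks), and the count in whole peaks, which are wider here than in the list as a whole, was 8 (44.4%, beside 15.1%). A match is a run of letters, and whether a factor was bound there was not measured here.

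Other genes of the pathway were mixed. The 4 Notch receptor genes had 34 opened and 11 closed peaks (75.6% opened, 61.3 to 85.8), with 13 opened and no closed peaks at Notch1, and 13 opened and 6 closed at Notch2. At the 8 target genes there were 45 opened and 31 closed (59.2% opened, 48.0 to 69.6). Hes1, whose promoter drives the sorted reporter, had 26 opened and 11 closed peaks, with an opened peak at its promoter. Hey1, another target that encodes a repressor, went the other way, with 1 opened and 13 closed peaks. In the nuclear complex (4 genes), 40 opened and 45 closed peaks were counted (47.1% opened, 36.8 to 57.6). Of these, the coactivator gene Maml3 alone had 18 and 32.

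Among 21 genes that process ligands and receptors, 44 opened and 39 closed peaks were listed (53.0% opened, 42.4 to 63.4). The intervals of the target, nuclear complex and processing genes all include the 50.8% of all listed peaks. Neuralized ubiquitin ligases act on Notch ligands, and of their genes Neurl1a had 1 opened and 16 closed peaks and Neurl1b 14 opened and 4 closed. The 8 other proposed Notch binding proteins had 20 opened and 37 closed peaks (35.1% opened, 24.0 to 48.1), including 15 closed and no opened at the contactin gene Cntn6. The genes named here are, within the lists used, those with the most peaks in either direction.

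Markers of the sorted populations and of other cells were read in the same way. The 8 NE marker genes (7 with a listed peak) had 11 opened and 60 closed peaks (15.5% opened, beside 50.8% of all listed peaks). Among them Insm1 alone had 28 closed peaks, and only Chga had more opened than closed, 8 against 6. The 7 lung epithelium genes had 35 opened and 5 closed (87.5% opened). Endothelial markers (8 genes) had 19 opened and 52 closed peaks, 23 of the closed ones at Cdh5. Their opened share was 26.8%, beside 29.5% for the ligand genes. Fibroblast and smooth muscle markers (8 genes) had 12 and 15 (44.4% opened). Leukocyte markers (8 genes) had 16 and 7 (69.6% opened), 11 of the opened ones at Ptprc. The study's methods stain the tumor cells for CD31, CD45 and TER-119, surface markers of endothelial, white and red blood cells used to gate such cells out. The part of other cell types in the ligand genes' peaks was not tested.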

How the data were processed

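ATAC-seq libraries of Hes1-GFP+ and Hes1-GFP- cells had been trimmed, aligned to mm10 with Bowtie2 2.3.4.1 and cleared of duplicates. Narrow peaks were called with MACS2, with reads shifted to the Tn5 cut sites, and merged over all samples, and reads per merged peak were compared with DESeq2 1.28.1. The authors deposited the peaks past an adjusted p of 0.001 and a 2-fold difference as an opened and a closed list, with a mean signal per peak (the mean over all libraries of counts divided by size factors). Whether lanes, or the 2 pairs of 1 mouse, were summed first is not given in the sources used here. The lists also hold log2 fold changes, their standard errors, Wald statistics, p-values and adjusted p-values of the authors' comparison; these were read only to test the lists' direction and limits (0 rows lay outside), and no value of them was used.

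Peaks (positions 1-based) were assigned to the nearest protein-coding start site of the basic GENCODE M21 annotation of GRCm38.p6, which is mm10, by their centre. A promoter peak had its centre within 1 kb of a start site. Sequences were read from the RefSeq genome and promoter table of that assembly, which held promoters of all 8 genes. Strings were searched on both strands in the central 200 bp. Matches may overlap. Results for 1 string and some sequences are not reported here. Computations used Python 3.11.15, numpy 2.4.6, pandas 2.3.3, scipy 1.17.1, pysam 0.24.0 and matplotlib 3.10.9, and the assignment and string searches were tested on simulated data. Shares have Wilson intervals at 95%. No value per library was analysed, so no test between groups was made, nothing was refitted and depth is unknown. All 8 genes are named; per gene the text gives the strongest opened and closed peak, promoter peaks within 1 kb and the peak nearest to the start, and of other pathway genes up to 5 with the most peaks in each direction. Other peaks, and REST itself, were singled out after their values were seen. The members, gene lists and strings were chosen with earlier results of these data known.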

Additional observations from a re-analysis of the deposited data

How the results depend on the processing

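The counts were recomputed in 7 other ways and in 1 more (without Jag1) chosen after seeing the data. With start sites of any biotype, 9 opened and 12 closed peaks were left (42.9% opened). Within 10 kb of the start they were 1 and 15 (6.25%), in the gene body or within 10 kb of it 4 and 38 (9.52%), and without Jag1 5 and 36 (12.2%). With a mean signal at or above the median of all listed peaks (31.5), the closed peaks fell to 23, with 14 opened. A limit of 100 kb, merging within 500 bp and the nearest peak edge kept both totals within 1.5 times, and closed peaks outnumbered opened ones in all 8 of these. Of 128 counts per gene, 37 moved by more, 35 of them down and 2 up (closed peaks of Dll3, to 2, and of Dlk2, to 1, in the gene body or within 10 kb of it). Promoter peaks within 3 kb were 0 opened and 9 closed, beside 31.8% of all opened and 17.3% of all closed peaks, so that the closed share (20.9%) lay nearer to that of the whole list than at 1 kb. In whole peaks, opened matches rose to 3 for RBPJ (16.7%, beside 9.17% of all opened peaks), 8 for AP-1 (44.4%, beside 15.1%), 5 for FOX (27.8%, beside 9.50%), 4 for E-boxes (22.2%, beside 19.8%) and 6 for NFI (33.3%, beside 24.7%), in peaks wider than those of the whole list; closed peaks with the 9-letter REST string fell to 0 (from 1). The whole peak is a longer stretch than the window for most opened peaks. Per width, the median signals stood at percentiles 56.3 of all opened and 54.2 of all closed peaks, in place of 69.6 and 60.1.

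A stricter fold or p limit was not tried, as those columns were not used. No paired analysis was possible because the lists hold no values per library; leaving out a library could not be done for the same reason. The depth behind each peak is unknown.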

Other observations

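Beyond Dlk1, the imprinted stretch that runs from its start to Dio3, a gene for a thyroid hormone deiodinase, was looked at after its values were seen. It is 826 kb long and held 19 listed peaks, assigned to Rtl1 or Dio3. The 6 assigned to Rtl1, between 175 and 473 kb from the Dlk1 start, were all closed, and the strongest of them (mean signal of 141) was near microRNA genes of the cluster. Of the 13 assigned to Dio3, between 619 and 826 kb, 12 were opened and 1 was closed. That closed peak (chr12:110156238-110156957) had the highest mean signal of the 19, 394. Of all listed peaks, 50.8% were opened. Several of the 12 opened peaks stood close together, at 665 to 671 kb and at 751 to 755 kb. Such peaks are neighbours rather than replicates. No listed peak lay between the Dlk1 start and 175 kb.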
